A study of Mus musculus with 21 samples.

Results

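GABA, glycine and glutamate carry most of the signalling between neurons of the midbrain, and the genes described here encode subunits of their receptors. In mouse midbrain RNA-seq, 52 genes were taken from among those whose name begins as that of a GABA-A, GABA-B, glycine, AMPA, NMDA, kainate, delta or metabotropic glutamate receptor subunit. The rule that chose them read gene names and no measured value, but it was set with earlier results of these data known. Of these, 51 were among the 33829 genes of the pre-treatment experiment, all 52 were among the 55385 genes of the delayed treatment experiment, and Gabrp was listed in the latter alone. One of the 52, Grin1os, is not a subunit but a long non-coding RNA antisense to Grin1 that shares its name.

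The 21 male C57BL/6 mice, with an age of 6 weeks in the labels, formed 7 groups of 3. MPTP, a neurotoxin used to injure dopaminergic neurons, was given at 30 mg/kg per day for 5 days. Irisin, a hormone released from muscle, was given at 200 μg/kg per day for 5 days. In the pre-treatment experiment, control mice received ddH2O for 10 days, MPTP mice received ddH2O and then MPTP for 5 days each, and the third group received irisin and then MPTP. In the delayed treatment experiment, control mice received ddH2O for 10 days, irisin mice received irisin and 5 days of ddH2O, MPTP mice received MPTP and 5 days of ddH2O, and the last group received MPTP and then irisin. MPTP is a model of toxin-induced loss over days, and the labels give no transgene. The question was whether the toxin, or irisin given before, after or without it, went with a change in these receptor genes. The samples of a group are separate mice, and with 3 against 3 an exact permutation test cannot give a p below 0.1, so tests came from a model fitted across all genes.

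Ionotropic GABA-A and glycine receptors are chloride channels and AMPA, NMDA and kainate receptors are cation channels, each assembled from several subunits, while GABA-B and metabotropic glutamate receptors act through G proteins. Most GABA-A receptors at synapses join alpha, beta and gamma subunits. In adult brainstem the glycine receptor joins Glra1 with Glrb, the beta subunit that binds the scaffold gephyrin. NMDA receptors need Grin1 together with a Grin2 or Grin3 subunit. The substantia nigra is known for dense GABA input from the striatum and pallidum and for glutamate input from the subthalamic nucleus.

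Depth was 66.7 to 75.6 M counts per mouse for pre-treatment and 48.8 to 77.2 M for delayed treatment. All 8 markers of dopaminergic neurons were detected in each group, with summed levels of 104 to 177 and of 94.1 to 148 FPKM (fragments per kilobase of gene length and M mapped fragments) in the respective experiments. Markers of neighbouring tissues were uneven between mice. The 4 choroid plexus markers summed to 1182 FPKM in MPTP mouse 2 of the pre-treatment experiment against 3.28 to 14.4 in the other 8 mice, and to 953.5 to 1171 in 4 of 12 delayed treatment mice, which were control mice 1 and 2, MPTP mouse 3 and MPTP and irisin mouse 2. The 8 cerebellar markers summed to 49.9, 43.4 and 54.6 FPKM in 3 mice and to 17.6 to 28.4 in the others. In bulk tissue, fewer cells of a type and less RNA per cell cannot be told apart.

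Promoters of 4 members show how differently their starts are built, and stand here because the levels of these genes differ widely. They are the windows from 250 bases before to 50 bases after the annotated start, from RefSeq on GRCm38.p6, 5′ to 3′ on the strand of the gene, with each CG dinucleotide in capitals. Gabbr1 and Glrb were the most abundant members, Gabra3 was abundant, and Gabra6 was at 0.317 ± 0.407 and 1.95 ± 2.07 FPKM in control mice of the respective experiments (mean ± SD, n = 3).
Gabbr1 (chr17:37045716-37046015, plus strand): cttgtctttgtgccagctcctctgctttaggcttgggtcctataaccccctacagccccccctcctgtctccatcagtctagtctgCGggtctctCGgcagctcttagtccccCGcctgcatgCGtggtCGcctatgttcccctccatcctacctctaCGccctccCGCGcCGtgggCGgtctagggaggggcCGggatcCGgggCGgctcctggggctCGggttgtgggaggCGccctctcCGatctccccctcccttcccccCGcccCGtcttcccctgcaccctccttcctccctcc
Glrb (chr3:80913611-80913910, minus strand): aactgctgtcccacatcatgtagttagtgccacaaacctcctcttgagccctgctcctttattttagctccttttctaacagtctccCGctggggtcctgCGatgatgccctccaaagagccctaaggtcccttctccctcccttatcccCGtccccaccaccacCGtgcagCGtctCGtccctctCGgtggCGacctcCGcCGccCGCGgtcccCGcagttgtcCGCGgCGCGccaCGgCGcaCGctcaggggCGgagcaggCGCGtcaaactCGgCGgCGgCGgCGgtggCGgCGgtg
Gabra3 (chrX:72656870-72657169, minus strand): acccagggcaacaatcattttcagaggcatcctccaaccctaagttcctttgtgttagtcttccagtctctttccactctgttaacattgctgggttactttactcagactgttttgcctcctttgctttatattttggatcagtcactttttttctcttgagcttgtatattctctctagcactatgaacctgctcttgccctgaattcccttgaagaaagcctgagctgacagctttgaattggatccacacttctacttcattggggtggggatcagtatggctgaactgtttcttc
Gabra6 (chr11:42321023-42321322, minus strand): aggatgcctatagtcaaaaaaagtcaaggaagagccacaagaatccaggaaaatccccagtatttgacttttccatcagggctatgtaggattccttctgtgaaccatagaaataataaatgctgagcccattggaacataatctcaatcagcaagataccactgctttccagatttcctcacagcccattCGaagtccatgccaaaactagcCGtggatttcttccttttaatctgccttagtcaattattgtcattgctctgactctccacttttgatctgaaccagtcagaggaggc

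The GABA-B subunit Gabbr1 and the glycine receptor subunit Glrb led the receptor genes (plot of control levels by family). In control mice of the pre-treatment experiment, Gabbr1 was at 73.8 ± 7.54 FPKM and Glrb at 72.5 ± 8.20 (mean ± SD, n = 3), and their ranges overlapped. In control mice of the other experiment, Gabbr1 was at 84.8 ± 4.35 FPKM and Glrb at 66.8 ± 1.28, with no overlap between their ranges. Gria1, the most abundant AMPA receptor subunit, was at 41.4 ± 9.43 and 36.0 ± 3.67 FPKM. The values of the 2 experiments were normalized in separate tables and are set side by side without a test.

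**Figure D1:**
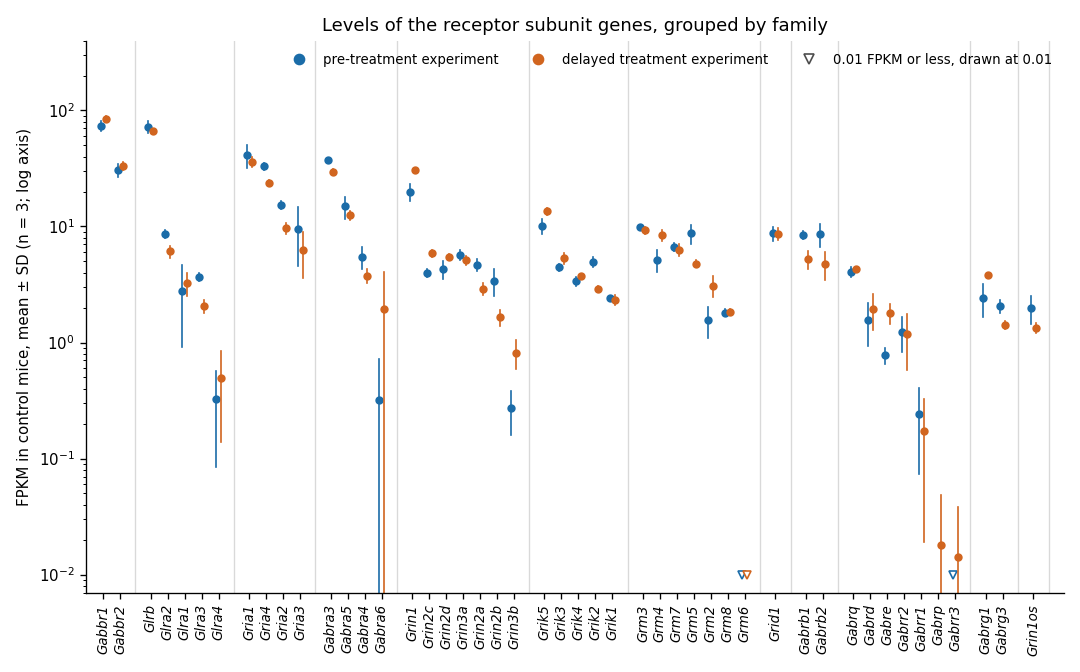
Level of receptor genes in control mice on a logarithmic FPKM axis, grouped by family, as the mean with SD of 3 mice of the pre-treatment (blue) and delayed treatment (orange) experiment. Triangles stand for levels of 0.01 FPKM or less, drawn at 0.01, and SD bars that reach the lower edge are cut there. Gabbr1 is the highest in both experiments, at 73.8 and 84.8 FPKM, and Grm6 is at 0 in both.

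Of the 51 genes in the pre-treatment table, 13 reached 10 FPKM in control mice, 31 lay between 1 and 10, and 7 were under 1. For delayed treatment these counts were 12, 34 and 6 of 52. The same 10 genes held the top 10 places in both tables, and over the 51 shared genes the order of levels had a Spearman rho of 0.947, which is a description across genes that share the tissue and annotation. Beside Gabbr1, Glrb and Gria1, they included Gabra3, Gria4, Gabbr2 and Grin1. At the lower end, the rho subunits Gabrr1 and Gabrr3, known from retina, were at 0.242 ± 0.167 and 0.00965 ± 0.0118 FPKM in control mice of the pre-treatment experiment. Grm6, the receptor of retinal ON bipolar cells, had 4 reads in all in one experiment and 19 in the other, each time from a single mouse.

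The promoter windows printed above differ in their number of CG dinucleotides. The window of Glrb had 30, that of Gabbr1 18, that of Gabra6 2 and that of Gabra3 0, although Gabra3 was at 37.0 and 29.5 FPKM in control mice. Over the 36 of 52 members with a window in the table, taking for each gene the window with the most CG, the count ran from 0 in Gabra3 to 50 in Grik3 with a median of 13, beside a median of 8 over 27025 genes. At least 1 CG, read on either strand as the same letters, was in 97.2% of members and 94.6% of all genes, and at least 10 in 24 of 36 members, or 66.7%, and 45.8% of all genes. By level in control mice of the delayed treatment experiment, 0 of 6 members under 1 FPKM, 17 of 22 at 1 to 10 FPKM and 7 of 8 at 10 FPKM or more had at least 10. No share of all genes was taken at these levels, so this split is not shown to be a trait of the receptor genes. In control mice of the pre-treatment experiment the split was less clean, since Gabre was under 1 FPKM at 0.780 and had 24 CG. The windows are a description of letters, and methylation was not measured.

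Among GABA-A subunits, Gabra3 was at 37.0 ± 1.20 and 29.5 ± 1.89 FPKM in control mice of the respective experiments, and Gabra5, an alpha subunit of receptors outside synapses, at 14.9 ± 3.24 and 12.5 ± 1.17. The beta subunits Gabrb2 and Gabrb1 were close to each other, at 8.59 ± 1.93 and 8.44 ± 0.710 FPKM for pre-treatment and at 4.73 ± 1.24 and 5.20 ± 0.896 for delayed treatment. Gabrq, a theta subunit known from monoaminergic nuclei and hypothalamus, was at 4.08 ± 0.407 and 4.31 ± 0.032 FPKM in control mice. The delta subunit Gabrd, which forms receptors outside synapses, was at 1.56 ± 0.624 and 1.94 ± 0.660 FPKM.

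Among glycine receptor alpha subunits, Glra2, often called the fetal subunit, held the largest mean share per annotated length. Its part of the summed FPKM of Glra1 to Glra4 was 53.8% ± 5.41 and 46.7% ± 4.93 over the mice of each experiment, and that of Glra1 was 21.8% ± 9.20 and 32.1% ± 5.93. Glra1 varied most between mice, from 9.27 to 34.9% in the pre-treatment experiment. Glrb exceeded the sum of the 4 alpha genes in every mouse.

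Among AMPA receptor subunits, Gria1 and Gria4 ranked above Gria2, the subunit whose edited form closes the channel to calcium. Gria1 held 40.5% ± 4.62 and 47.3% ± 1.85 of the summed FPKM of the family, Gria4 33.4% ± 3.19 and 30.1% ± 2.18, Gria2 16.4% ± 1.19 and 13.8% ± 1.20, and Gria3 9.63% ± 3.48 and 8.85% ± 2.40. FPKM divides by the length of all annotated exons, which the counts and FPKM imply to be 17.5 kb for Gria2 and 6.81 kb for Gria1, so this order is one per annotated length.

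Among NMDA receptor subunits, the 4 Grin2 genes lay below Grin1. They were close to each other in the pre-treatment experiment and further apart with delayed treatment. The obligatory subunit Grin1 was at 19.9 ± 3.14 and 30.7 ± 0.225 FPKM in control mice. Of the summed Grin2 FPKM, Grin2a held 28.2% ± 1.85 and 20.0% ± 1.59, Grin2b 20.3% ± 1.78 and 12.7% ± 2.61, Grin2c 25.1% ± 2.93 and 35.4% ± 2.60, and Grin2d 26.4% ± 2.03 and 31.9% ± 2.34. Grin2d is a subunit of slow NMDA currents known from midbrain and diencephalon, and Grin2a is the main subunit of adult forebrain. Per length, Grin2d was thus near Grin2a in the pre-treatment experiment and above it with delayed treatment. The length behind Grin2b was 28.0 kb and that behind Grin2d 7.51 kb, and this order too is one per annotated length. Of the Grin3 genes, Grin3a was at 5.70 ± 0.597 and 5.10 ± 0.436 FPKM and Grin3b under 1 FPKM on average in control mice of both experiments.

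Grik5, a high-affinity kainate receptor subunit that needs a partner to form a channel, led its family per annotated length with 38.9% ± 1.41 and 47.1% ± 1.93 of the summed FPKM. Grid1 was at 8.71 ± 1.19 and 8.62 ± 1.05 FPKM in control mice. Among metabotropic receptors, Grm3, a group II receptor of astrocytes and neurons, was the highest per annotated length in control mice at 9.95 ± 0.213 and 9.30 ± 0.616 FPKM. Its neighbour in the pre-treatment experiment, Grm5 at 8.72 ± 1.67, is a group I receptor coupled to calcium release, and the ranges of Grm3 and Grm5 overlapped. With delayed treatment the next highest was Grm4, a presynaptic group III receptor, at 8.42 ± 0.984 FPKM.

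No receptor gene passed an adjusted p of 0.05 in any of 6 comparisons by the quasi-likelihood test of edgeR, adjusted by Benjamini-Hochberg over all tested genes (plot of fold changes by comparison). Tested were 49 of the 51 receptor genes of the former experiment and 50 of 52 of the latter, the others being Gabrr3 and Grm6 with too few reads. DESeq2 called 0 as well in each comparison. Gabrb1 and Gabra4 overlap on opposite strands by 196 bases and Grin1 and Grin1os by 7706, Gabra5 also lies in part over another gene, and since the use of strand in counting is not given in the sources used here, reads cannot be told apart there. The comparisons within an experiment share groups of mice: MPTP mice serve in both comparisons of the pre-treatment experiment, and control and MPTP mice each serve in several of the delayed treatment experiment.

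**Figure D2:**
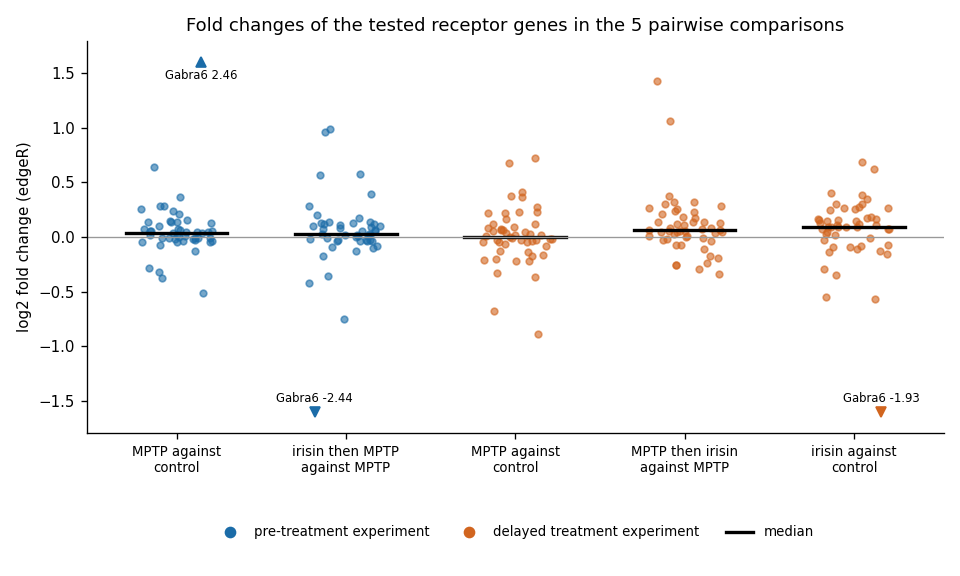
The log2 fold change of each tested receptor gene in the 5 pairwise comparisons, as points spread sideways for sight, with a black line at the median. Triangles are values of Gabra6 beyond the axis, printed beside them. The medians are 0.04, 0.02, 0.00, 0.06 and 0.09 from left to right, and no point passed an adjusted p of 0.05.

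MPTP against control mice of the pre-treatment experiment gave the smallest differences, with a median size of 0.0553 on the log2 scale beside 0.155 over all genes. No receptor gene had an unadjusted p under 0.05, against 6.03% of all 22641 tested genes, of which 0.0221% passed the adjusted threshold, and DESeq2 also gave 0. The log2 fold changes had a median of 0.04 beside 0.00 over all genes and were positive in 30 of 49 receptor genes, or 61.2%, beside 49.6% of all genes. The share in receptor genes came to 46.9% without control mouse 2, 81.6% without MPTP mouse 2 and 85.7% without control mouse 1. Over all genes it was 50.2%, 49.0% and 48.7% in these fits. The smallest p belonged to Gabrb1, a beta subunit that glia also express. Gabrb1 was at 9.23, 7.87 and 8.21 FPKM in control mice and at 9.43, 9.72 and 9.0 in MPTP mice, a log2 fold change of 0.15 (SE 0.07, unadjusted p = 0.0599 and adjusted p = 0.827 by edgeR's quasi-likelihood test). The ranges of the groups overlapped, as they did for each of the 49 genes on scaled counts, where 11.6% of all genes had groups that did not overlap. Gabrb2 had a log2 fold change of 0.37 (SE 0.20), which was 0.19 without control mouse 3.

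For the following core subunits the interval of the difference included 0. For Grin1 the difference was 0.01 on the log2 scale with an approximate 95% interval of -0.24 to 0.25. Gabbr1 differed by -0.04 with an interval of -0.17 to 0.09, and Glrb by -0.02 with an interval of -0.20 to 0.17. Gria2 differed by 0.13 with an interval of -0.09 to 0.34. Among the NMDA receptor subunits Grin2a differed by -0.04 (SE 0.13) and Grin2b by 0.00 (SE 0.16). This does not show that the levels were equal. Kainate subunits were positive in 5 of 5 genes, between 0.04 and 0.13, and Grik3 with an SE of 0.07 had the highest of these values (unadjusted p = 0.0909 by edgeR). Gabrq was at 0.24 (SE 0.14), and at 0.12 without MPTP mouse 2.

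Irisin before MPTP against MPTP gave 2 receptor genes with an unadjusted p under 0.05, the rho subunit gene Gabrr2 and Grm3. Over all genes 6.22% had such a p and 0.0707% passed the adjusted threshold, and DESeq2 also gave 2 receptor genes. Gabrr2 was at 1.70, 0.964 and 1.02 FPKM in MPTP mice and at 2.77, 2.03 and 2.36 in irisin and MPTP mice. All irisin and MPTP mice lay above all MPTP mice, and control mice of the same experiment were at 1.48, 0.772 and 1.47 FPKM. The log2 fold change was 0.96 (SE 0.30, unadjusted p = 0.0118, adjusted p = 0.604 by edgeR), from a low level of 2.93 ± 0.983 against 5.70 ± 0.928 counts per M. Grm3 was at 9.34, 8.90 and 12.5 FPKM in MPTP mice and at 8.30, 7.43 and 7.09 in irisin and MPTP mice. The groups did not overlap, and MPTP mouse 3 stood above the control mice, which were at 10.1, 10.1 and 9.71 FPKM. The log2 fold change of Grm3 was -0.43 (SE 0.14, unadjusted p = 0.0136, adjusted p = 0.630 by edgeR), and -0.25 without MPTP mouse 3.

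Groups did not overlap for 6 receptor genes in this comparison, where 14.2% of all genes did not. Among them Gabrr2, Grik1, Grin1os and Grm7 were higher in irisin and MPTP mice, and Grm3 was lower. Grm7, a presynaptic receptor of low glutamate affinity, was at 7.45, 5.76 and 6.87 FPKM in MPTP mice and at 7.45, 7.57 and 8.05 in irisin and MPTP mice, with a log2 fold change of 0.20 (SE 0.11) that was 0.10 without MPTP mouse 2. Gabrd was at 1.27, 2.17 and 0.865 FPKM in MPTP mice and at 0.729, 0.847 and 0.969 in irisin and MPTP mice, with overlapping ranges and a log2 fold change of -0.75 (SE 0.38, unadjusted p = 0.0808 by edgeR). The highest of its values came from MPTP mouse 2, which was also high in cerebellar and choroid plexus markers, and without it the log2 fold change was -0.34. Positive values were found in 30 of 49 genes, or 61.2%, with a median of 0.02, beside 50.7% of all genes. When MPTP mouse 2 was left out they were found in 21 of 49, or 42.9%, beside 50.6% of all genes.

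MPTP against control mice of the delayed treatment experiment gave 4 receptor genes with an unadjusted p under 0.05, namely Grm8, Glra1, Grin2d and Grm2. Over all 21922 tested genes 8.33% had such a p and 0.132% passed the adjusted threshold, and DESeq2 also gave 4 receptor genes. Glra1, the adult alpha subunit of the glycine receptor, was at 2.41, 3.55 and 3.82 FPKM in control mice and at 5.92, 4.56 and 5.42 in MPTP mice. All MPTP mice lay above all control mice, with a log2 fold change of 0.67 (SE 0.23, unadjusted p = 0.0135, adjusted p = 0.449 by edgeR). Without the mice high in choroid plexus markers, which leaves control mouse 3 as the only control, the value was 0.42. In irisin mice Glra1 was at 3.05, 5.80 and 4.25 FPKM and in MPTP and irisin mice at 5.20, 4.45 and 4.17, so that the irisin mice reached into the range of the MPTP mice. In the pre-treatment experiment Glra1 was at 2.12, 4.95 and 1.35 FPKM in control mice and at 4.0, 5.6 and 3.80 in MPTP mice, a log2 fold change of 0.65 with an SE of 0.51 and overlapping groups (plot of the genes with the smallest p by mouse).

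The other 3 genes were lower in MPTP mice. Grm8, a presynaptic group III receptor of high glutamate affinity, was at 1.75, 1.88 and 1.91 FPKM in control mice and at 1.20, 1.51 and 1.65 in MPTP mice. The groups did not overlap, and the log2 fold change was -0.37 (SE 0.12, unadjusted p = 0.0122, adjusted p = 0.436 by edgeR). Grin2d was at 5.48, 5.13 and 5.76 FPKM in control mice and at 5.05, 4.60 and 4.69 in MPTP mice. These groups lay close but apart, with a log2 fold change of -0.22 (SE 0.08, unadjusted p = 0.0249, adjusted p = 0.511 by edgeR). Grm2, a group II receptor on glutamatergic endings, was at 3.58, 2.39 and 3.31 FPKM in control mice and at 1.62, 2.42 and 1.86 in MPTP mice. Its log2 fold change was -0.68 (SE 0.27, unadjusted p = 0.0271, adjusted p = 0.524 by edgeR), and control mouse 2 and MPTP mouse 2 were at nearly the same level, at 13.25 and 13.24 counts per M. In the pre-treatment experiment, MPTP mice were at 1.84, 1.89 and 1.94 FPKM for Grm8 and control mice at 1.73, 1.75 and 1.95, with the higher mean in MPTP mice.

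**Figure D3:**
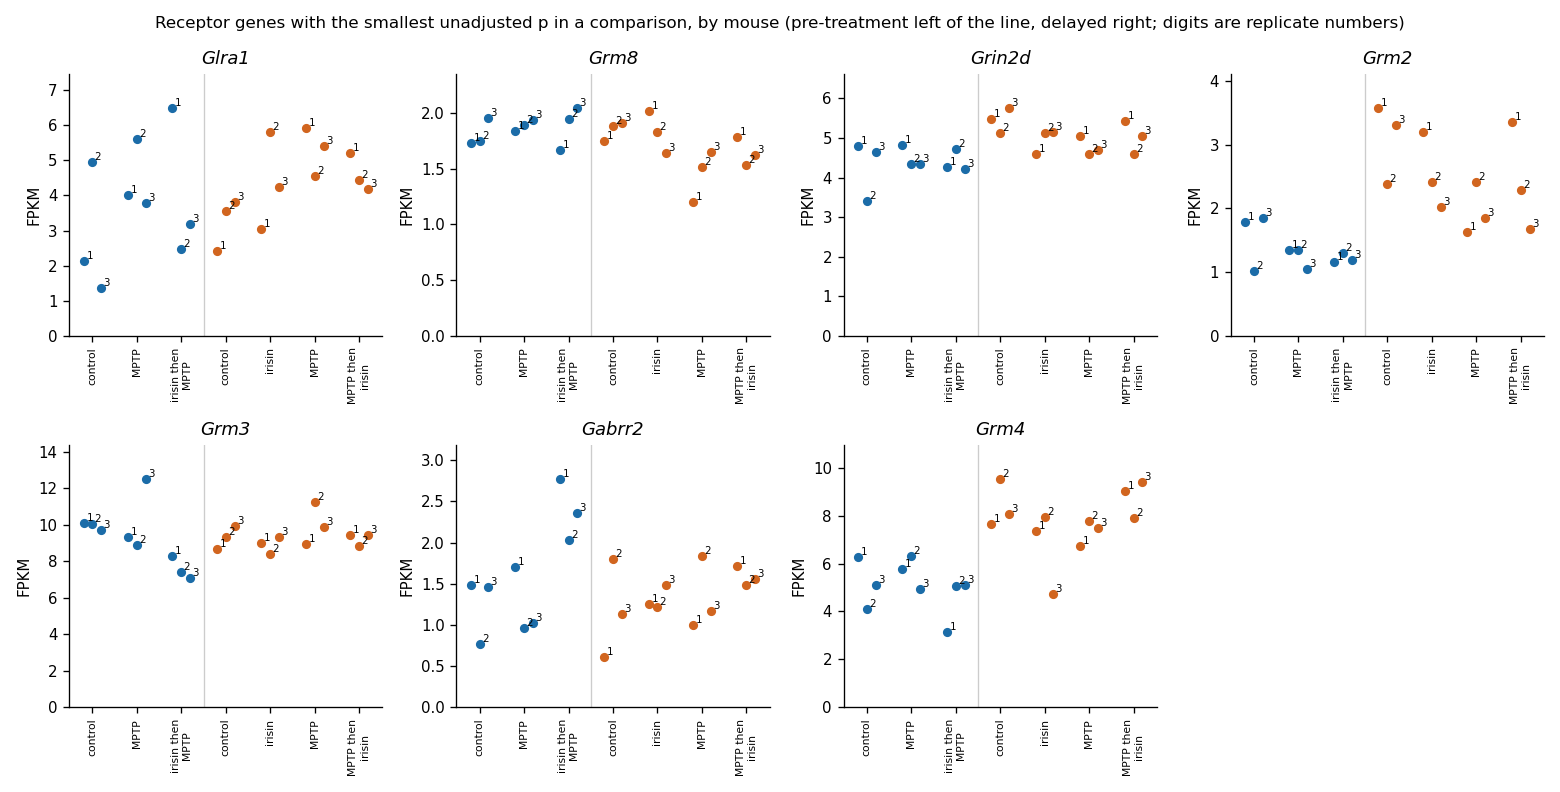
FPKM of 7 receptor genes in each of the 21 mice, by group, with the pre-treatment experiment (blue) left of the grey line, the delayed treatment experiment (orange) right of it and the replicate number beside each point. Shown are 6 receptor genes past an unadjusted p of 0.05 in a pairwise comparison, and Grm4, which had such a p for the interaction. Glra1 ranges from 2.41 to 3.82 FPKM in control mice and from 4.56 to 5.92 in MPTP mice of the delayed treatment experiment, and in the pre-treatment experiment these groups overlap.

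Groups did not overlap for 5 receptor genes, where 16.2% of all genes did not. Beside Glra1 these were Grm8, Grin2d, Grm2 and the gamma subunit gene Gabrg1, all lower in MPTP mice on scaled counts. In FPKM, Gabrg1 was at 3.782 to 3.857 in control and 2.136 to 3.784 in MPTP mice, an overlap at the edge. Grm2 overlapped in FPKM too. Positive and negative values were 25 each among 50 genes, with a median of 0.00, where 49.7% of all genes were positive. Without the mice high in choroid plexus markers, set against control mouse 3 alone, 16 of 51 were positive with a median of -0.07. Over all genes 51.5% were positive in that fit. Gabrb1 was at 0.06 (SE 0.13) and Gabrb2 at 0.23 (SE 0.23). Gabbr1 differed by 0.04 with an approximate 95% interval of -0.08 to 0.16. Grin1 differed by -0.03 with -0.13 to 0.07 and Glrb by 0.02 with -0.08 to 0.12. Among other core subunits, Gria2 differed by 0.22 with -0.04 to 0.48, Grin2a by 0.12 with -0.13 to 0.37 and Grin2b by 0.36 with -0.12 to 0.85. Over the same comparison the dopaminergic markers summed to 140 to 148 FPKM in control mice and to 94.1 to 122 in MPTP mice, with no overlap. In the pre-treatment experiment they summed to 109 to 164 FPKM in control and 111 to 177 in MPTP mice, and these ranges overlapped.

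Irisin after MPTP against MPTP gave 1 receptor gene with an unadjusted p under 0.05. Over all genes 3.9% had such a p and 0.00456% passed the adjusted threshold, and DESeq2 also gave 1 receptor gene.

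Positive values were found in 35 of 50 receptor genes, or 70.0%, beside 49.9% of all genes. The median was 0.06 beside 0.00 over all genes. Without MPTP and irisin mouse 1, 25 of 51 genes were positive, beside 49.1% of all genes, and the median was 0.00. Groups did not overlap for 4 receptor genes, among them Gabra3, Glra2 and Grm4, all higher with irisin, where 10.7% of all genes had groups that did not overlap. Gabra3, the alpha subunit known from monoaminergic neurons, was at 30.2, 31.6 and 28.1 FPKM in MPTP mice and at 33.9, 31.8 and 31.6 in MPTP and irisin mice, with a log2 fold change of 0.12 (SE 0.07, unadjusted p = 0.0974 by edgeR). Gria1 was at 32.9, 38.6 and 35.7 FPKM and at 45.8, 37.8 and 36.7 in the same groups, with mouse 1 of the latter standing apart and a log2 fold change of 0.18 (SE 0.10) that was 0.08 without it. Glra3, an alpha subunit of the glycine receptor, had a log2 fold change of 0.29 (SE 0.16) that was 0.10 without the same mouse.

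Irisin alone against control mice gave 0 receptor genes with an unadjusted p under 0.05 by edgeR and 2 by DESeq2, where edgeR gave such a p for 8.97% of all genes and 0.109% passed the adjusted threshold. The smallest p belonged to Gabra5. It was at 11.5, 12.1 and 13.8 FPKM in control mice and at 16.7, 15.1 and 17.5 in irisin mice. All irisin mice lay above all control mice, with a log2 fold change of 0.38 (SE 0.17, unadjusted p = 0.0501, adjusted p = 0.554 by edgeR). Groups did not overlap for 4 receptor genes, beside 15.1% of all genes. These were Gabra5, the kainate subunit gene Grik2 and Grm5, all higher with irisin, and Grin1, which was lower. Grin1 was at 30.9, 30.5 and 30.5 FPKM in control mice and at 28.4, 29.7 and 30.1 in irisin mice, a log2 fold change of -0.07 (SE 0.05). The log2 fold change of Grik2 was 0.25 (SE 0.12) and that of Grm5 0.30 (SE 0.15). Positive values were found in 35 of 50 genes, or 70.0%, with a median of 0.09, beside 49.5% of all genes. When the mice high in choroid plexus markers, among them control mice 1 and 2, were left out, control mouse 3 alone stood for its group. In that fit 25 of 51 genes were positive with a median of 0.00, beside 52.0% of all genes.

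For the interaction of irisin and MPTP, which asks whether the difference with irisin was the same in mice with and without MPTP, Grm4 alone had an unadjusted p under 0.05. Over all genes 5.57% had such a p and 0.0411% passed the adjusted threshold, and DESeq2 also gave 1 receptor gene. Grm4 was at 7.64, 9.52 and 8.08 FPKM in control, 7.37, 7.93 and 4.72 in irisin, 6.74, 7.78 and 7.48 in MPTP and 9.05, 7.88 and 9.39 in MPTP and irisin mice. The difference with irisin was -0.35 on the log2 scale without MPTP, or -0.16 when irisin mouse 3 was left out, and 0.27 after MPTP. Their difference was 0.62 (SE 0.23, unadjusted p = 0.0219, adjusted p = 0.893 by edgeR), and the low level of irisin mouse 3 stood apart from all others of the experiment. Next in order of p were Gabra6 at 3.36 (SE 1.69), Grin2d at 0.23 (SE 0.12) and Glra1 at -0.60 (SE 0.32). Without control mouse 2 the value of Gabra6 was 2.17, and without irisin mouse 2 that of Glra1 was -0.35.

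Gabra6, the alpha subunit of cerebellar granule cells, had the largest fold changes of all members, and these followed single mice (plot of Gabra6 by cerebellar markers). In the pre-treatment experiment it was at 5.31 FPKM in MPTP mouse 2 and at 0.0193 to 0.781 in the other 8 mice. With delayed treatment it was at 4.13 FPKM in control mouse 2, at 5.75 in MPTP and irisin mouse 3 and at 0 to 1.85 in the other 10. These 3 mice were the 3 whose 8 cerebellar markers summed to over 40 FPKM. Cbln3, a granule cell gene of that list, was at 7.83 FPKM in MPTP mouse 2 and at 0.169 to 0.796 in the other mice of the pre-treatment experiment. The log2 fold change of Gabra6 with MPTP was 2.46 (SE 1.79) in the pre-treatment experiment and -0.89 (SE 1.16) in the delayed treatment experiment, and its sign turned to -2.15 and 0.30 without the mice high in cerebellar markers.

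**Figure D4:**
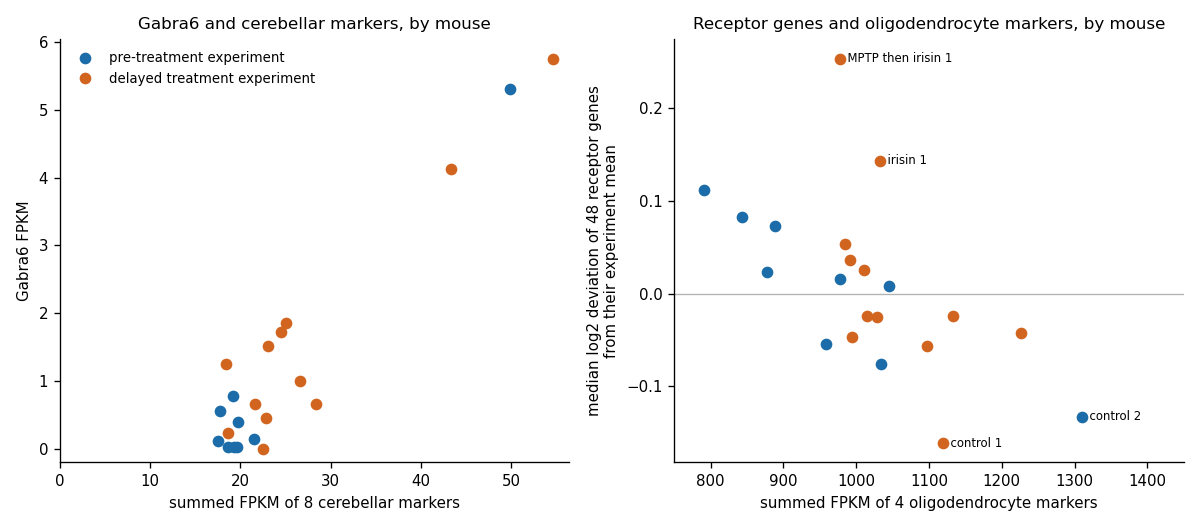
Left, FPKM of Gabra6 in each mouse against the summed FPKM of 8 cerebellar markers, where the 3 mice above 40 FPKM of markers hold the 3 highest Gabra6 levels of 4.13, 5.31 and 5.75. Right, the median log2 deviation of 48 receptor genes from their experiment mean in each mouse against the summed FPKM of 4 oligodendrocyte markers, with the 4 mice furthest from 0 named, where MPTP and irisin mouse 1 is the highest at 0.25 and the delayed treatment control mouse 1 the lowest at -0.16.

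In the pre-treatment experiment, Glra1 ran with Hoxb3 and Hoxb5 of the hindbrain marker list but not with the list as a whole. Hoxb2, also on the list, was not read by itself. Control mouse 2, MPTP mouse 2 and irisin and MPTP mouse 1 had the highest Glra1 of their groups at 4.95, 5.6 and 6.5 FPKM. The same 3 mice had the highest Hoxb3, at 1.41, 1.48 and 0.963 FPKM against 0 to 0.556 in the other 6, and the highest Hoxb5. The 6 hindbrain and serotonergic markers together went another way, since their sum was the lowest of its group in control mouse 2, at 8.50 against 11.4 and 33.9 FPKM, and in irisin and MPTP mouse 1, at 14.3 against 44.0 and 31.5, and the highest in MPTP mouse 2, at 79.1 against 10.5 and 20.8. Tph2, the serotonin synthesis enzyme of that list, was likewise the lowest of its group in the former 2 mice, at 3.59 and 8.20 FPKM. In the delayed treatment experiment Hoxb3 lay between 1.26 and 3.40 FPKM. It was at 2.08 to 3.12 in control and 2.27 to 3.40 in MPTP mice, the groups whose Glra1 levels did not overlap. In no group there did the mouse with the highest Glra1 have the highest Hoxb3 or Hoxb5. Control mouse 3, MPTP mouse 1 and MPTP and irisin mouse 1 had the highest Glra1 of their groups. Their Hoxb5 was the lowest of the group, at 8.64, 9.51 and 8.10 FPKM. The part of hindbrain tissue in the Glra1 levels was not tested.

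Receptor genes tended to be high or low together in a mouse. In MPTP and irisin mouse 1, 36 of 50 tested genes were the highest of the 3 mice of the group, beside 35.6% of all genes. In control mouse 1 of the pre-treatment experiment it was 34 of 49, beside 32.2%. In control mouse 1 of the delayed treatment experiment, 32 of 50 were the lowest of 3, beside 34.0%, and in MPTP mouse 2 of the pre-treatment experiment 29 of 49, beside 36.0%. The median log2 deviation of 48 genes from their experiment mean ran from -0.13 to 0.11 over the 9 mice of the pre-treatment experiment and from -0.16 to 0.25 over the 12 of the delayed treatment experiment. The median log2 fold changes of the pairwise comparisons were 0.00 to 0.09. They compare groups of 3 mice, whereas the ranges above are of single mice, so the sizes do not test one against the other.

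Marker levels of other cells moved with this order. In 6 of 7 groups, the mouse with the most receptor genes at the lowest level had the highest sum of the 4 oligodendrocyte markers, and in 6 of 7 the mouse with the most at the highest level had the lowest sum. For astrocyte markers these counts were 5 and 7 of 7, and for the 6 general neuron markers 6 and 7 of 7. The general neuron markers, among them Snap25 and Tubb3, thus ran against the receptor genes in these groups. For dopaminergic, cerebellar, cortical, striatal, thalamic, hindbrain and microglial markers each count was 3 or less of 7, for choroid plexus markers 4 and 5, and for endothelial markers 5 and 4. In the pre-treatment experiment the oligodendrocyte markers summed to 1310 FPKM in control mouse 2, whose median deviation of -0.13 was the lowest, and to 791 in MPTP mouse 1, whose deviation of 0.11 was the highest. The part of tissue make-up or of RNA quality in this order was not tested.

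Some genes stood at separate levels in mice of the same group (plot of the genes with wide spread by mouse). Of 44 receptor genes with a mean of at least 1 FPKM in the pre-treatment experiment, 6 differed at least 2-fold between mice of a group, or 13.6%, beside 15.4% of all genes at that level. For delayed treatment it was 8 of 46, or 17.4%, beside 14.9%. Gria3, an X-linked AMPA receptor subunit gene, was at 3.76, 5.23 and 6.30 FPKM in mouse 3 of the 3 groups of the pre-treatment experiment and at 10.9 to 13 in the other 6 mice. With delayed treatment Gria3 was at 3.22, 3.82 and 4.12 FPKM in control mouse 1, irisin mouse 1 and MPTP and irisin mouse 3, and at 7.57 to 9.02 in the other 9. Its lowest value rested on 1747 reads. Gabrd ranged from 0.923 to 3.79 FPKM within MPTP and irisin mice, and from 0.865 to 2.17 within MPTP mice of the pre-treatment experiment.

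**Figure D5:**
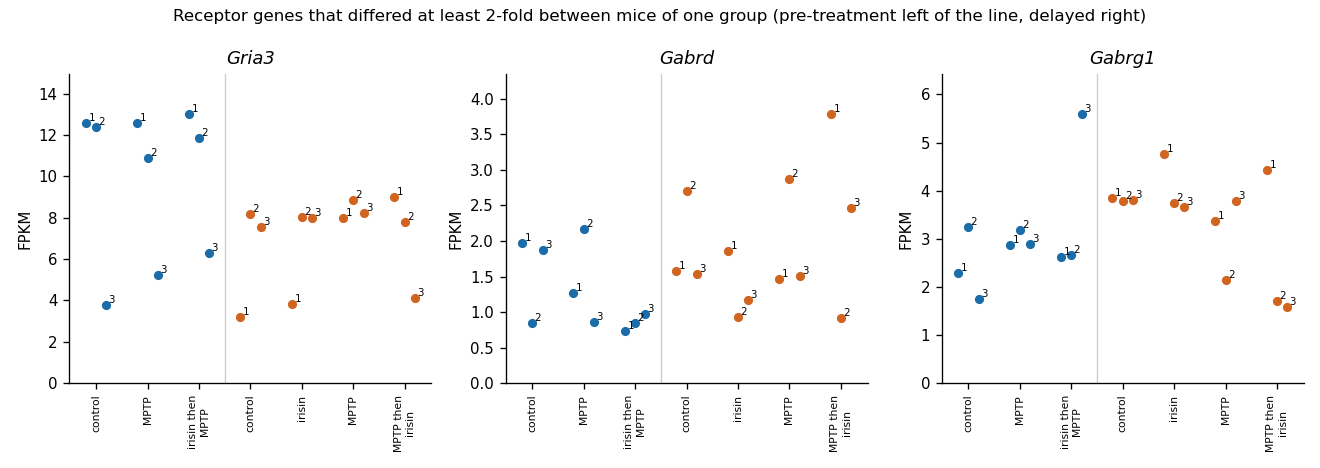
FPKM of Gria3, Gabrd and Gabrg1 in each of the 21 mice, by group, with the pre-treatment experiment (blue) left of the grey line, the delayed treatment experiment (orange) right of it and the replicate number beside each point. Gria3 is at 3.22 to 6.30 FPKM in 6 mice and at 7.57 to 13 in the other 15, and Gabrg1 is at 5.59 in a single mouse of the pre-treatment experiment.

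Gabrg1 was at 5.59 FPKM in irisin and MPTP mouse 3 and at 1.75 to 3.24 in the other mice of the pre-treatment experiment, and at 1.71 and 1.57 in MPTP and irisin mice 2 and 3 against 4.44 in mouse 1.

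Other genes of the same synapses were called in none of the 6 comparisons by edgeR. Of 16 genes of transmitter synthesis and transport, 8 of scaffolds and auxiliary subunits of inhibitory receptors and 29 of those of glutamate receptors, each list had 0 to 3 genes with an unadjusted p under 0.05 in a comparison. The smallest p in the pre-treatment experiment was that of Glul, the glutamine synthetase of astrocytes, with a log2 fold change of 0.38 for irisin before MPTP against MPTP (SE 0.06, unadjusted p = 0.000184, adjusted p = 0.107 by edgeR). For delayed treatment it was that of Dlg2, the scaffold PSD-93, for the interaction, at -1.79 (SE 0.44, unadjusted p = 0.00172, adjusted p = 0.571 by edgeR). Dlg2 differed by 1.08 (SE 0.31) between MPTP and control mice, by 1.08 (SE 0.31) between irisin and control mice and by -0.71 (SE 0.31) between MPTP and irisin mice and MPTP mice, and these comparisons share mice.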

How the data were processed

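RNA-seq of mouse midbrain was analysed for 21 mice in 7 groups of 3, grouped by the sample labels. In the study, nigral tissue was taken by hand after perfusion and sequenced on a NovaSeq 6000, and reads were counted with featureCounts. The submitters' processing notes also name HISAT, StringTie, edgeR and the build mm9, with no version, whereas 40 of 52 receptor genes have the exact coordinates of GENCODE M21 on GRCm38 in the tables. The authors deposited raw counts per gene and mouse, which were the unit of all tests. They also deposited FPKM, which were used for levels and family shares, and a value of 0 is written as 0.0001 in 1 of the tables. The total count was 48.8 to 77.2 M per mouse. Intervals cover the model's error only. The use of strand in counting is not given in the sources used here.

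Tests of counts used edgeR 4.0.16 under R 4.3.3. Genes passed filterByExpr at 10 counts and a total of 15, libraries were scaled by TMM, and the quasi-likelihood test was two-sided, with all groups of an experiment in 1 fit and the experiments apart. P-values were adjusted by Benjamini-Hochberg over all tested genes. An SE is the log2 fold change divided by the square root of the F statistic, and a 95% interval is 1.96 SE. The procedure was tested on simulated data. Alternatives were DESeq2 1.42.0, median ratio scaling, other filters, only the compared groups, the replicate number as a block, leaving out each mouse, and, chosen after seeing the data, leaving out mice high in choroid plexus (over 900 FPKM) or cerebellar (over 40 FPKM) markers.

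The members and the lists of markers and synapse genes were chosen with earlier results of these data known. Named by rule were members past the adjusted threshold, the 4 smallest p per comparison, the highest member of each family, and core subunits such as Gabrb2, Gabra6, Glra1, Gria2, Grin1, Grin2a and Grin2b, and others were named after their values were seen. Some subunit genes are not reported here, although counts over the members may include them, and no shares are given for GABA-A families. Promoter windows were taken from RefSeq tables.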

Additional observations from a re-analysis of the deposited data

How the results depend on the processing

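The count of receptor genes past the adjusted threshold was 0 in all 6 comparisons under each alternative that was run, including every fit without a mouse. Counts at an unadjusted p under 0.05 moved. The share of all genes with such a p is given for the main fit only. The counts under the alternatives, also those with the replicate block, therefore have no such share beside them. They cannot be read as a result about the receptor genes. For MPTP against control in the pre-treatment experiment, 0 became 1 with genes of a mean FPKM of at least 1, 2 without the mouse high in cerebellar and choroid plexus markers, which is the same mouse, and 0 to 4 without each mouse, the highest without control mouse 1. For MPTP against control in the delayed treatment experiment, 4 became 6 without mice high in cerebellar markers or without control mouse 2 alone, and 2 to 6 without each mouse, the lowest without control mouse 1 or 3 or MPTP mouse 1 or 3. For irisin after MPTP against MPTP, 1 became 2 with only the compared groups, 2 without mice high in choroid plexus markers and 0 to 2 without each mouse, the lowest without MPTP mouse 1. For irisin alone, 0 became 2 with DESeq2, 1 with all genes of any count and 1 with median ratio scaling. It became 3 with only the compared groups and 3 without mice high in cerebellar markers. Without each mouse it was 1 to 5, the highest without control mouse 3 or irisin mouse 3. For the interaction, 1 became 1 to 8 without each mouse, the highest without MPTP and irisin mouse 1. For irisin before MPTP the range was 2 to 3. Fits without a mouse leave 2 in its group. Leaving out mice high in choroid plexus markers leaves 1 control mouse in the delayed treatment experiment, assumed to vary like the other groups. Comparisons with control under that setting rest on that mouse, and their counts at an unadjusted p are not given here.

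With the replicate block, the counts at an unadjusted p under 0.05 were 1 for MPTP against control and 3 for irisin before MPTP in the pre-treatment experiment, and 4, 0, 0 and 1 for MPTP, irisin after MPTP, irisin alone and the interaction in the delayed treatment experiment. Same-numbered mice of different groups deviated together by correlations of -0.078 to 0.101 and of -0.076 to 0.039 in the experiments. Mice with different numbers did so by -0.111 to 0.137 and by -0.068 to 0.083. Whether same-numbered mice share more than the number was not tested.

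Gabra6 changed its sign. Its log2 fold change with MPTP in the pre-treatment experiment was -2.15 without MPTP mouse 2 and ran from -2.15 to 4.38 over the fits without each mouse. For irisin before MPTP it was 2.18 without that mouse in a range of -3.07 to 2.18, whose removal is also what the marker limits amount to there. With MPTP in the delayed treatment experiment it was 0.30 without mice high in cerebellar markers or control mouse 2 alone, in a range of -1.47 to 0.30, and 10.14 without mice high in choroid plexus markers, where irisin alone gave 9.43 and the interaction -7.43. That setting left control mouse 3, listed at 0 FPKM, as the only control mouse, so the size of these values is set by the prior count. Of the fitted values of named genes under alternatives, 413 kept their sign and side of the threshold and 11, all of Gabra6, did not. The counts of 44 and 46 genes at 1 FPKM or more in control mice were the same on CPM per kilobase. The lengths used were those that the counts and FPKM imply, so this is no separate check. Depth limits Gabrr3, Grm6 and Gabrp, which had few reads.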
